A study of Mus musculus with 7 samples.

Results

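Hmgcs1, Sqle, Idi1, Insig1, Lss, Dhcr7, Mvd and Fdft1 are 8 genes of cholesterol synthesis and its control, chosen by name among the 32285 genes counted in these libraries. Of the 8 genes, 7 encode enzymes of the synthesis pathway and Insig1 encodes a regulator of it. None encodes an uptake receptor, and genes of uptake and transport are described as a list beside them. The libraries came from utricles, the vestibular organs that sense gravity and linear acceleration, taken from wild-type C57BL/6J mice at P2 and cultured as explants. Both groups were damaged with gentamicin, an aminoglycoside that kills hair cells (2 mM for 24 h), and were collected at day 5 after injury. The Gent+Fos OE group (4 libraries) also received AAV-PHP.eB carrying mouse Fos behind a CMV promoter for 48 h, and the Gent group (3 libraries) is labelled as the gentamicin control. The CMV promoter is not restricted to 1 cell type. Each library held RNA pooled from 12 utricles. The labels name no virus for the Gent group. The study describes the control of this comparison in one place as a gentamicin control and in another as having received a control AAV, and the names of its deposited counts hold letters that also stand for shRNA, so its virus status differs between the sources.

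Cells make cholesterol from acetyl-CoA through mevalonate, farnesyl diphosphate, squalene and lanosterol. When sterols in the endoplasmic reticulum run low, SCAP carries the transcription factor SREBP-2 to the Golgi, where it is cut and released, and it then activates most genes of the pathway. INSIG1 holds SCAP back when sterols are plentiful, and Insig1 is itself an SREBP target, so these genes often change together. In the inner ear, as elsewhere, cholesterol shapes membrane properties of hair cells and is needed by cells that build membrane.

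On mm10, the build of the files, Hmgcs1 lies at chr13:119690379-119708260, Idi1 at chr13:8885501-8892451, Insig1 at chr5:28071363-28078662 and Dhcr7 at chr7:143823145-143848410. Lss lies at chr10:76531588-76557138 and Sqle at chr15:59315077-59331192, and these 6 genes are on the plus strand. Mvd at chr8:122433601-122443422 and Fdft1 at chr14:63145150-63179578 are on the minus strand. Of the exonic bases of Fdft1, 18.8% are shared with Ctsb, and of those of Hmgcs1, 12.1% are shared with Gm48342. Reads falling in shared bases were left uncounted, so the levels of these genes rest on the rest of their exons.

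SREBPs bind sterol regulatory elements in promoters, often beside NF-Y, which binds the letters CCAAT, whereas Fos acts within AP-1, which binds TGANTCA. RefSeq promoter windows on GRCm38.p6, running from 250 bases before a start to 50 after it, were found for 6 of the 8 genes, that is for Hmgcs1, Idi1, Insig1, Lss, Dhcr7 and Mvd. Upstream bases of Hmgcs1, Insig1 and Mvd are shown, 5′ to 3′ on the strand of the gene. The levels of all of these genes overlapped between groups, and Mvd had the largest fold change of the 8 in size (below). The bases run up to the first exonic base of the files or the RefSeq start. Capitals mark CCAAT on either strand (ATTGG where it is on the opposite one) and, in Hmgcs1, TCACNCCAC.
Hmgcs1: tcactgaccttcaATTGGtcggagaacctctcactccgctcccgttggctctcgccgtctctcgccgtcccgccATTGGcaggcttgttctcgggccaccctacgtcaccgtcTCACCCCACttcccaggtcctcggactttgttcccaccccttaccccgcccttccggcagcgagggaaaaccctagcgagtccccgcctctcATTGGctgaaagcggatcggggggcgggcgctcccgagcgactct
Insig1: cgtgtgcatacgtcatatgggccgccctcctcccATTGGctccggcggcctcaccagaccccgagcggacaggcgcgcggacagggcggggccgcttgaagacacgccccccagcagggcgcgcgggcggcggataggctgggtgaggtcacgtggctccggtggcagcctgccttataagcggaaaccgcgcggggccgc
Mvd: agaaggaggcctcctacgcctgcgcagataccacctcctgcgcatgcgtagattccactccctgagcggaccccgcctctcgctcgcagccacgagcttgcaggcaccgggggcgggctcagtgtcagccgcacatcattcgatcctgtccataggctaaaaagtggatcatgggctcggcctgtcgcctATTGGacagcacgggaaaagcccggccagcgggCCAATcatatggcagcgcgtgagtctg

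The stretches lie at chr13:119690101-119690350 (plus strand) for Hmgcs1, chr5:28071162-28071362 (plus strand) for Insig1 and chr8:122443423-122443672 (minus strand) for Mvd. CCAAT was found on either strand in a window of all 6 genes, against 41.1% of the 27025 genes with a window, and in 15 of the 17 synthesis genes that had one. For Dhcr7 it was found only in a window whose start lies inside the gene. Several spellings of a sterol regulatory element were searched on both strands. TCACNCCAC was found in Hmgcs1 only among the 6, at position -137 from the start, and in 1.44% of all genes. The looser TCACNNCAC, which includes it, was found in Hmgcs1 and in 1 of the 3 windows of Dhcr7, whose start also lies inside the gene. It was found in 4 of the 17 synthesis genes and in 4.37% of all genes. CACCCCAC, which overlaps TCACNCCAC by all 8 of its letters, was found in Hmgcs1 alone among the 6 (3.3% of all genes). The AP-1 letters TGANTCA were found in 1 of the 6 genes, in the same window of Dhcr7 that held CCAAT. They were found in 3 of the 17 synthesis genes (17.6%), against 8.97% of all genes. These matches describe letters in short windows and do not show binding.

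Fos itself checks the labels, since the vector carries the mouse sequence and its transcripts are counted with those of the cells. Fos stood at 151.14, 150.58, 166.98 and 148.83 CPM (counts scaled to library size, with TMM factors) in the 4 Gent+Fos OE libraries and at 39.5, 40.58 and 34.61 CPM in the 3 Gent libraries. The groups lay far apart, with a log2 fold change of 2.01 ± 0.13 (SE) and an adjusted p (Benjamini-Hochberg) of 0.000142 by edgeR's quasi-likelihood test. Library totals ran from 27879889 to 34335214 counts. In the Gent group, replicate 2 differed from the other 6 libraries. The Spearman correlation of its gene levels, relative to the mean of all libraries, with gene length was -0.496, against -0.221 in Gent replicate 3, 0.153 in Gent replicate 1 and 0.124 to 0.325 in Gent+Fos OE. The trend was positive in all 4 Gent+Fos OE libraries and in 1 of the 3 Gent libraries, and the fold changes of all tested genes correlated with length at a Spearman rho of 0.378. In Gent replicate 2, mitochondrial genes took 2.86% of the counts, against 1.74 to 1.99% elsewhere.

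In the comparison of Gent+Fos OE with Gent, 0 of the 8 genes were called. A call needed an adjusted p under 0.01 in edgeR's quasi-likelihood test and an absolute log2 fold change over 0.25. Over the 17155 genes tested, 0.134% were called higher and 0.28% lower. At an unadjusted p under 0.05, 3 of the 8 genes were lower in Gent+Fos OE (Dhcr7, Mvd and Fdft1) and 0 were higher, where 13.4% of all tested genes were lower at that limit and 11.1% higher. Leaving out Gent+Fos OE replicate 3 brought this count to 1 of the 8, leaving out replicate 2 of that group to 2, and leaving out Gent replicate 2 to 6, beside 9.68%, 9.68% and 10.2% of all tested genes lower in those fits. The log2 fold changes of 7 of the 8 were below 0, with a median of -0.13 against 0.00 over all tested genes, and they ranged from -0.52 for Mvd to 0.02 for Idi1. The groups did not overlap for 2 of the 8, Dhcr7 and Fdft1, both lower, and the share of all tested genes lower without overlap was 12.2%. In bulk RNA, fewer cells of a type and less RNA per cell cannot be told apart.

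**Figure D1:**
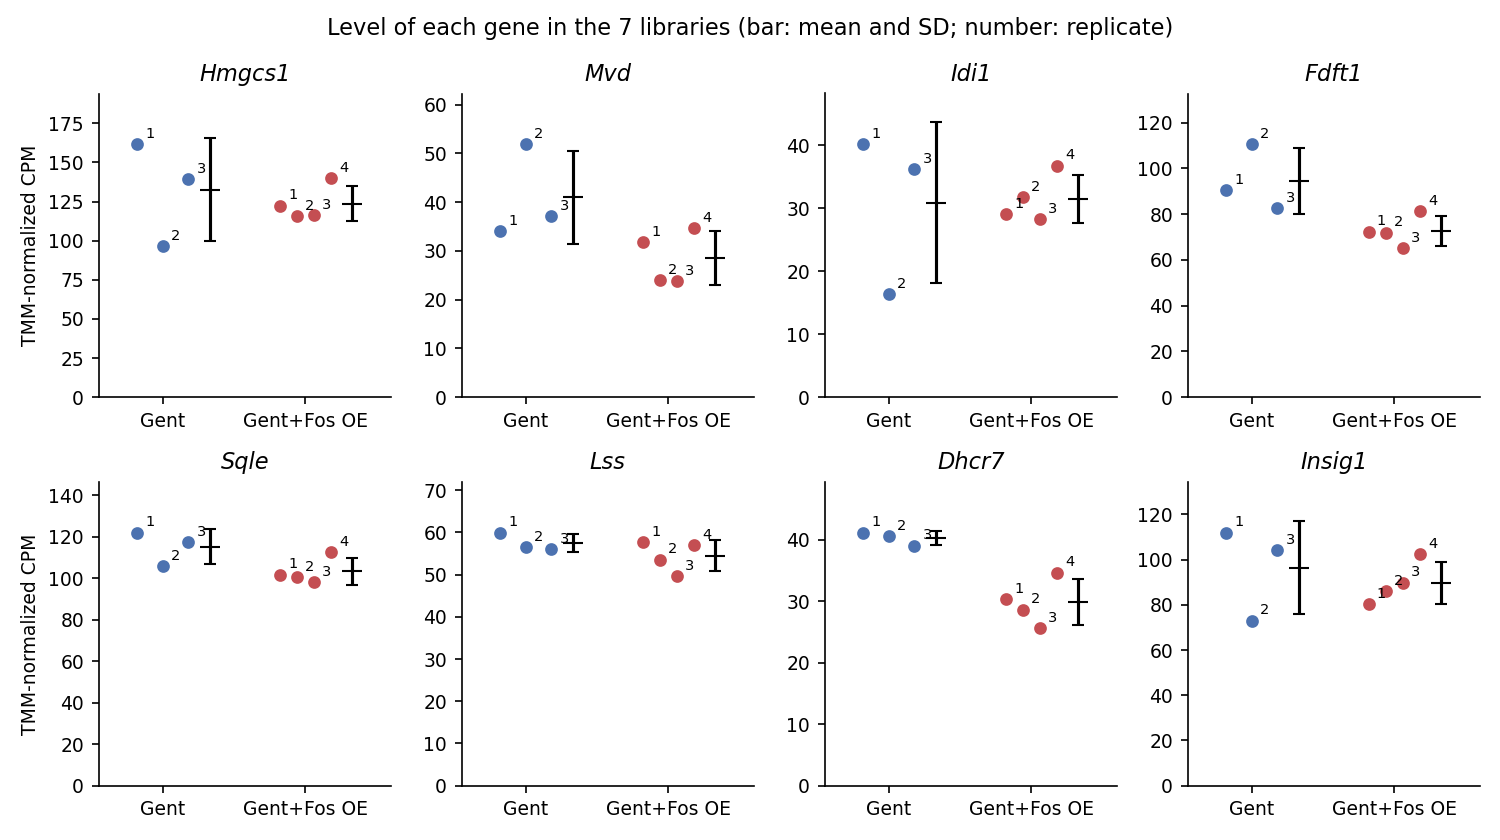
Level of each of the 8 genes (vertical axis, TMM-normalized CPM from 0) in the 3 Gent libraries (blue) and the 4 Gent+Fos OE libraries (red), with the replicate number beside each point and the mean and SD as a bar. The groups are separate for Dhcr7 and Fdft1 only, and Gent replicate 2 lies below the other libraries for Hmgcs1, Idi1 and Insig1 and above them for Mvd and Fdft1.

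Hmgcs1, Mvd and Idi1 act upstream of farnesyl diphosphate. Hmgcs1, the synthase that makes HMG-CoA, stood at 122.45, 115.65, 116.35 and 139.91 CPM in Gent+Fos OE and at 161.68, 96.66 and 139.43 CPM in Gent. All 4 Gent+Fos OE values lay inside the range of the Gent libraries, whose spread was set by replicates 1 and 2. Its log2 fold change was -0.10 ± 0.17 (SE, 95% interval -0.48 to 0.28) with an adjusted p of 0.732 by edgeR's quasi-likelihood test, and a two-sided exact permutation test, which compared the group means of log2 CPM under all 35 ways to assign the labels, gave p = 0.743. Its fold change on that scale was -0.29 without Gent replicate 2 and 0.07 without Gent replicate 1.

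Mvd, the decarboxylase that turns mevalonate diphosphate into isopentenyl diphosphate, stood at 31.85, 23.97, 23.81 and 34.61 CPM in Gent+Fos OE and at 34.09, 51.92 and 37.1 CPM in Gent. The groups touched only through Gent+Fos OE replicate 4, which was just above Gent replicate 1. Its log2 fold change was the largest of the 8 in size, -0.52 ± 0.19 (95% interval -0.94 to -0.10), and it missed the call with an adjusted p of 0.147 by edgeR's quasi-likelihood test (exact permutation p = 0.0857). Without Gent replicate 2, the highest library, it was -0.32 with an adjusted p of 0.284 in the same test.

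Idi1, the isomerase that makes dimethylallyl diphosphate, stood at 29.05, 31.75, 28.27 and 36.79 CPM in Gent+Fos OE and at 40.21, 16.38 and 36.2 CPM in Gent. The group means of 31.5 ± 3.85 (SD, n = 4) and 30.9 ± 12.8 CPM (SD, n = 3) were close, but Gent replicate 2 held less than every other library and Gent replicate 1 more. The log2 fold change of 0.02 ± 0.26 (95% interval -0.54 to 0.59) had an adjusted p of 0.962 by edgeR's quasi-likelihood test. Its sign was not stable, since it was -0.29 without Gent replicate 2 (adjusted p 0.239 by the same test), -0.06 without Gent+Fos OE replicate 4 and 0.26 without Gent replicate 1.

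The next 3 steps lead to lanosterol, and all 3 of their enzymes are among the 8 genes. Fdft1, squalene synthase, which commits farnesyl diphosphate to sterols, stood at 72.36, 71.92, 65.16 and 81.24 CPM in Gent+Fos OE and at 90.42, 110.57 and 82.72 CPM in Gent. Every Gent+Fos OE library was below every Gent library, though replicate 4 of the first and replicate 3 of the second were close. The log2 fold change was -0.38 ± 0.14 (95% interval -0.68 to -0.08), with an adjusted p of 0.146 by edgeR's quasi-likelihood test and an exact permutation p of 0.0571. Without Gent replicate 2 it was -0.26.

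Sqle, squalene epoxidase, a rate-limiting enzyme of the later pathway, stood at 101.64, 100.55, 98.05 and 112.43 CPM in Gent+Fos OE and at 121.91, 105.64 and 117.5 CPM in Gent. The groups overlapped through Gent+Fos OE replicate 4 and Gent replicate 2. The log2 fold change was -0.16 ± 0.12 (95% interval -0.42 to 0.10), with an adjusted p of 0.413 by edgeR's quasi-likelihood test and an exact permutation p of 0.114.

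Lss, lanosterol synthase, which closes the sterol rings, varied least of the 8 over the 7 libraries. It stood at 57.64, 53.55, 49.71 and 56.93 CPM in Gent+Fos OE and at 59.96, 56.54 and 55.96 CPM in Gent, with overlapping groups. The log2 fold change was -0.08 ± 0.11 (95% interval -0.33 to 0.18), with an adjusted p of 0.691 by edgeR's quasi-likelihood test. Lss has the longest exonic sequence of the 8 genes (10787 bases), and after a correction for gene length its log2 fold change was -0.39 with an adjusted p of 0.118 in the same test.

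Dhcr7, the reductase that converts 7-dehydrocholesterol into cholesterol at the end of the pathway, had the lowest p of the 8. It stood at 30.29, 28.63, 25.68 and 34.68 CPM in Gent+Fos OE and at 41.17, 40.58 and 39.06 CPM in Gent. The 3 Gent libraries lay close together and above all 4 Gent+Fos OE libraries. The log2 fold change was -0.43 ± 0.13 (95% interval -0.73 to -0.14), that is a level 0.74 times that of Gent, with an unadjusted p of 0.00764 and an adjusted p of 0.11 by edgeR's quasi-likelihood test. The exact permutation test gave p = 0.0571, where the smallest p this design allows is 0.0286. Without Gent replicate 2, which moved Mvd and Fdft1 toward 0, it was still -0.43, with an adjusted p of 0.0936 by edgeR's quasi-likelihood test.

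Insig1, the sterol-sensing anchor of SCAP and the only regulator among the 8, stood at 80.21, 86.16, 89.79 and 102.41 CPM in Gent+Fos OE and at 111.95, 73.04 and 104.33 CPM in Gent. All 4 Gent+Fos OE values lay inside the range of the Gent libraries, as for Hmgcs1 and Idi1. The log2 fold change was -0.11 ± 0.16 (95% interval -0.46 to 0.25), with an adjusted p of 0.705 by edgeR's quasi-likelihood test. It was -0.28 without Gent replicate 2 and 0.01 without Gent replicate 1.

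Per kb of exonic sequence, the scale used to set levels of different genes side by side, Insig1 was highest over the 7 libraries (29.9 ± 4.56 CPM per kb, mean and SD) and Hmgcs1 next (27.7 ± 4.62). Fdft1 (19.9 ± 3.67), Sqle (19.5 ± 1.65) and Mvd (18.2 ± 5.1) followed, then Idi1 (8.91 ± 2.24), Dhcr7 (5.9 ± 1.07) and Lss (5.17 ± 0.305). In this order the ranges of neighbours overlapped over the libraries except between Mvd and Idi1. Exonic length is the union of annotated exons, so the per kb level of a gene with long, little used exons is understated. Counted over exonic bases not shared with another gene, Hmgcs1 (31.6 ± 5.26) stood above Insig1, and Fdft1 was at 24.6 ± 4.52. The order of the middle genes also differed by group, with Sqle (18.6), Fdft1 (17.7) and Mvd (15.4) in Gent+Fos OE, and Fdft1 (23), Mvd (22.1) and Sqle (20.7) in Gent.

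The 8 genes varied among the libraries of a group as well as between groups. Gent+Fos OE replicate 4 had the highest level of its group for 7 of the 8 genes, and replicate 3 the lowest for 6 of the 8. In Gent, replicate 1 was highest for 6 of the 8. Averaged over the 8 genes, log2 CPM relative to the mean of each gene was -0.09, -0.14, -0.21 and 0.10 in Gent+Fos OE replicates 1 to 4 and 0.23, -0.03 and 0.14 in the Gent replicates. Gent+Fos OE replicate 4 thus lay above Gent replicate 2 on this mean.

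**Figure D2:**
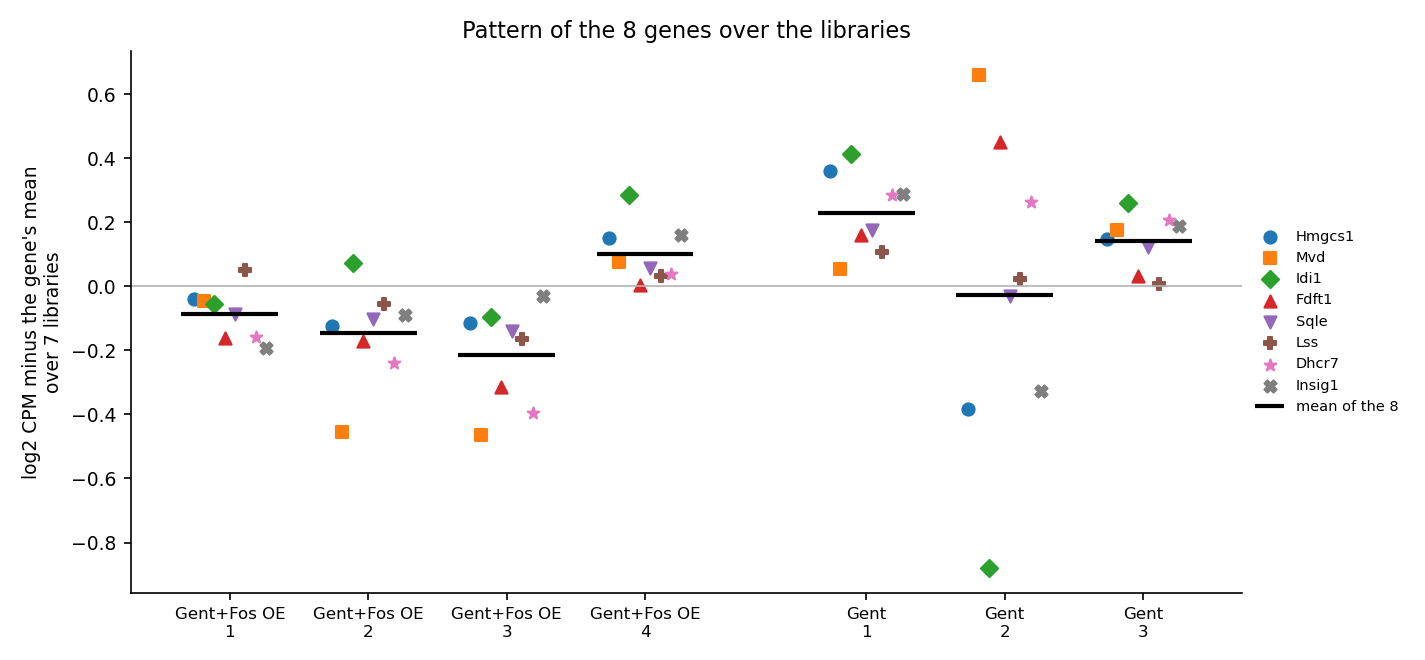
Log2 CPM of each gene minus its own mean over the 7 libraries (vertical axis) in each library (horizontal axis), with a marker per gene and a black line for the mean of the 8. In Gent replicate 2 the genes spread from -0.88 for Idi1 to 0.66 for Mvd, whereas in Gent+Fos OE replicate 4 all 8 were above 0.

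In Gent replicate 2 the genes parted in opposite directions. Relative to its mean, Idi1 stood at -0.88, Hmgcs1 at -0.38 and Insig1 at -0.33 there on the log2 scale, while Mvd stood at 0.66, Fdft1 at 0.45 and Dhcr7 at 0.26. The smooth trend of levels with gene length in this library, at the exonic length of each gene, was 0.28 for Mvd and -0.50 for Lss, but 0.07 for Idi1, 0.12 for Insig1 and -0.06 for Hmgcs1. There the values of Idi1, Insig1, Dhcr7 (trend -0.18) and Lss (value 0.02) were opposite in sign to that trend. Those of Hmgcs1, Mvd and Fdft1 (trend 1e-04) had its sign and were larger in size. That of Sqle (-0.03, trend -0.16) had its sign and was smaller. The coefficient of variation over the Gent libraries was 41.3% for Idi1, 24.9% for Hmgcs1, 23.3% for Mvd and 21.4% for Insig1, against 12.2%, 9.15%, 19.3% and 10.5% in Gent+Fos OE. It was smaller in Gent for Dhcr7 (2.7% against 12.6%) and Lss (3.76% against 6.67%). The lowest count of any of the 8 genes in a library was 511, for Idi1 in Gent replicate 2, where counting alone gives a coefficient of variation of 4.42%.

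Without Gent replicate 2, all 8 log2 fold changes were below 0, from -0.43 for Dhcr7 to -0.10 for Lss, with a median of -0.28. Of the 8, 6 had an unadjusted p under 0.05 (Hmgcs1, Sqle, Idi1, Insig1, Dhcr7 and Fdft1), beside the 10.2% of all tested genes. None was called, and their adjusted p ranged from 0.0936 for Dhcr7 to 0.626 for Lss by edgeR's quasi-likelihood test. Without Gent replicate 1, 3 of the 8 were above 0 and the median was -0.08, nearer to 0 than with all libraries. The count lower at an unadjusted p under 0.05 stayed at 3 of the 8, where 16.8% of all tested genes were lower in that fit. With all 7 libraries and a correction for gene length, 5 of the 8 were lower at an unadjusted p under 0.05 (Sqle, Lss, Dhcr7, Mvd and Fdft1), where 15.2% of all tested genes were, with a median of -0.30 against -0.04 over all tested genes, and again none was called.

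**Figure D3:**
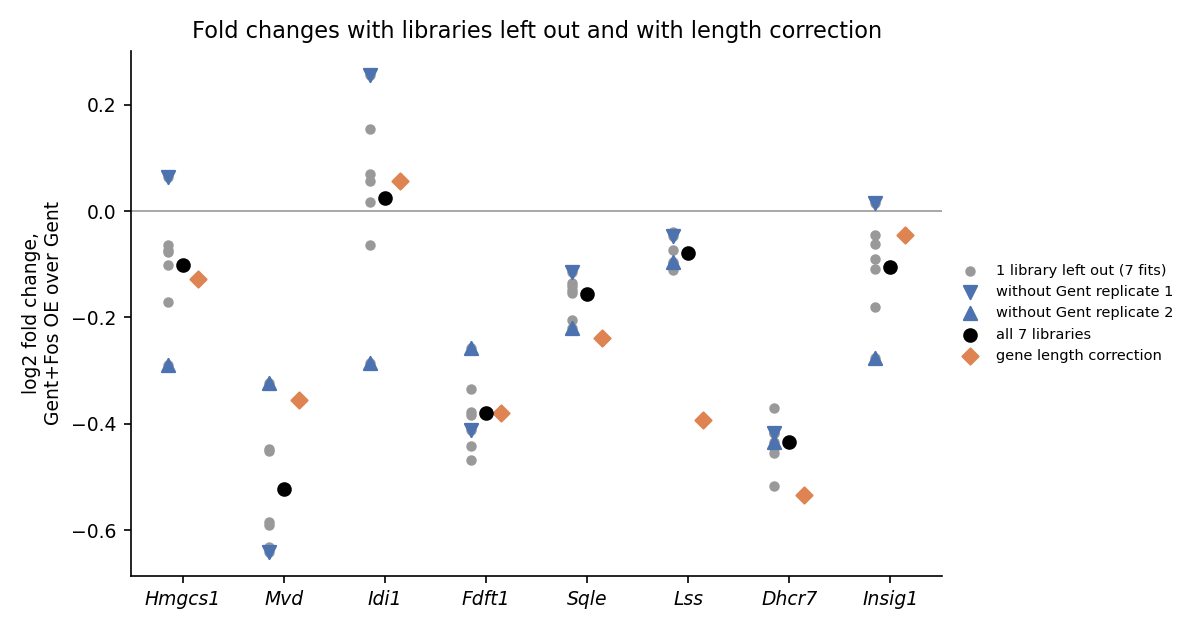
Log2 fold change of each gene, Gent+Fos OE over Gent (vertical axis), with all 7 libraries (black), with each library left out in turn (grey, Gent replicates 1 and 2 as blue triangles) and with a gene length correction (orange). Only Hmgcs1, Idi1 and Insig1 cross 0 among these fits, whereas Dhcr7 stays between -0.53 and -0.37.

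A list of 21 genes of the synthesis pathway held 20 enzymes and Erg28, a scaffold protein without known enzyme activity that works with the enzymes of the later steps. Of the 21 genes, 0 were called, 18 had log2 fold changes below 0, and 8 were lower at an unadjusted p under 0.05 with 0 higher, beside the 13.4% and 11.1% of all tested genes. With 1 library left out this count ran from 5 (Gent+Fos OE replicate 3) to 10, while the share of all tested genes ran from 9.68 to 16.8%, and 15 of the 21 were below 0 without Gent replicate 1. The median was -0.25 with Erg28 (itself -0.25) and over the 20 enzymes alone, of which 8 were lower at that limit. Over the 13 enzymes outside the 8 genes it was -0.30, with 5 of 13 lower at that limit. By stage, the median was -0.43 over 7 enzymes from acetyl-CoA to farnesyl diphosphate, -0.16 over the 3 from there to lanosterol and -0.19 over 10 from lanosterol to cholesterol. With the length correction these medians were -0.33, -0.38 and -0.25, so the order of the stages depended on the setting. Fdps, which makes farnesyl diphosphate, had the largest fold change, -0.57 ± 0.17 with an adjusted p of 0.105 by edgeR's quasi-likelihood test. It stood at 71.1 to 88.9 CPM in Gent+Fos OE and at 97 to 150 CPM in Gent, where the highest value was that of Gent replicate 2. Ebp, a sterol isomerase, was -0.54 ± 0.17, Mvk, mevalonate kinase, -0.53 ± 0.22, Acat2, the thiolase of the first step, -0.43 ± 0.13, and Nsdhl, which takes part in removing methyl groups, -0.41 ± 0.15. Without Gent replicate 2 the same 5 values were -0.35, -0.32, -0.21, -0.35 and -0.23. With all libraries, 2 of the 13 enzymes outside the 8 genes were above 0, the highest at 0.25.

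**Figure D4:**
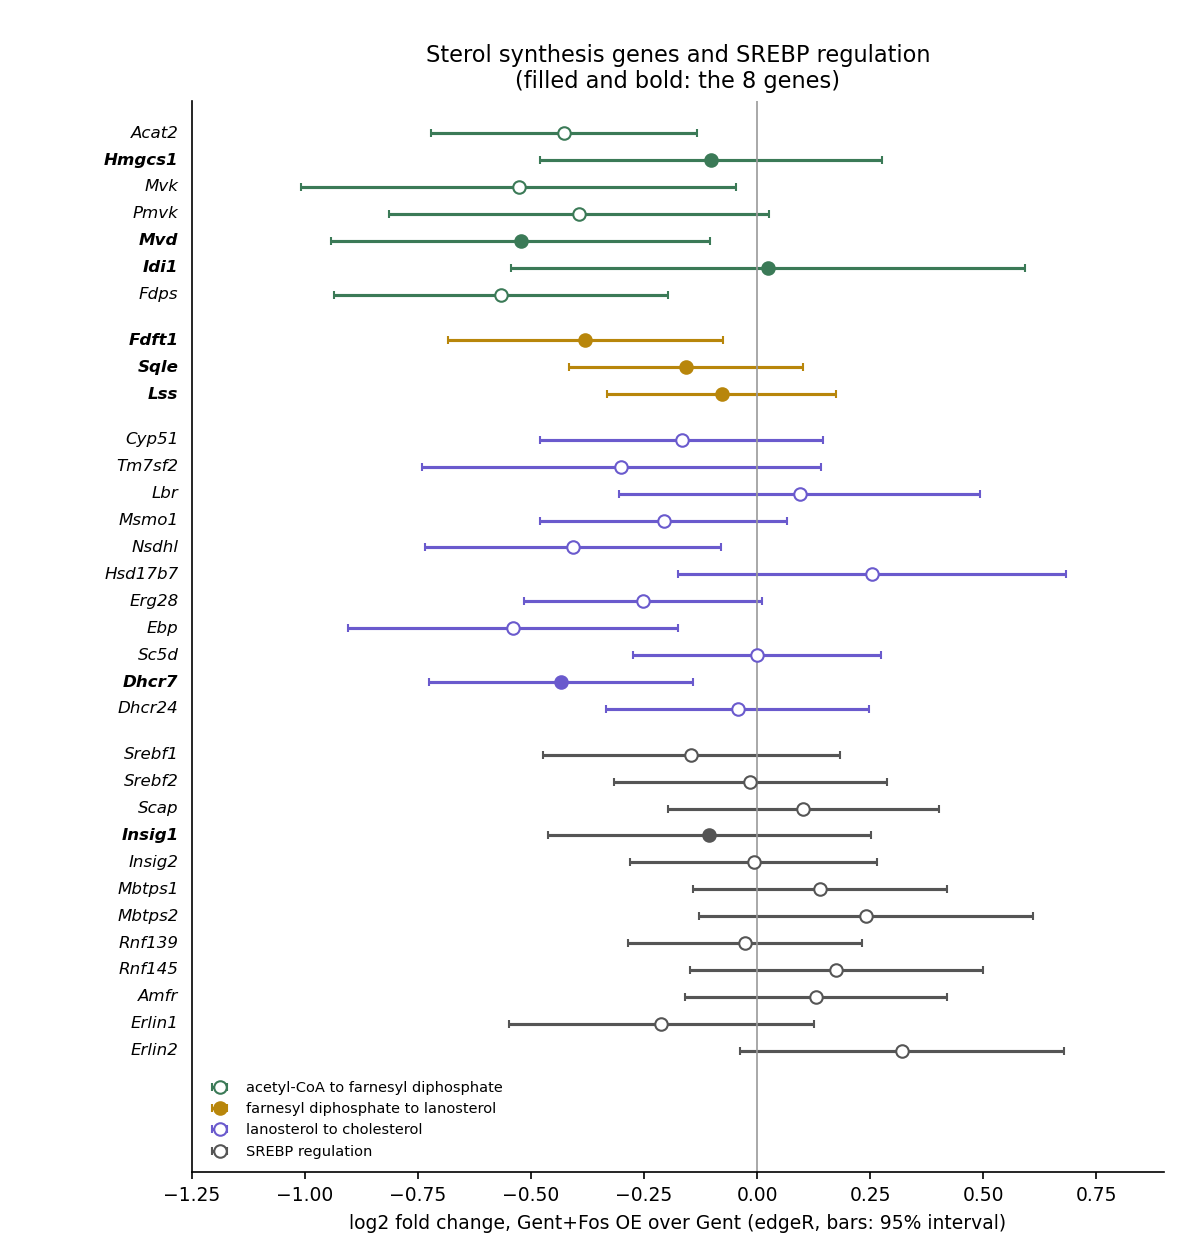
Log2 fold change, Gent+Fos OE over Gent (horizontal axis), with its 95% interval from edgeR for 21 synthesis genes by stage (Erg28, no enzyme, included) and for the SREBP regulators. Filled points and bold names mark the 8 genes, of which Mvd, Fdft1 and Dhcr7 have intervals below 0, and no gene shown was called.

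The regulators had log2 fold changes between -0.21 and 0.32. Of 12 genes of SREBP regulation, 0 were called and 0 were below an unadjusted p of 0.05, and their median was 0.05. Srebf2, which encodes SREBP-2, was -0.02 ± 0.14 (95% interval -0.32 to 0.29), and Srebf1, which encodes the SREBP-1 forms that drive fatty acid synthesis, was -0.15 ± 0.15. Scap was 0.10 ± 0.14 and Insig2, the second INSIG, -0.01 ± 0.12. With the length correction the median of the 12 was -0.07 and Scap was -0.09, and without Gent replicate 2 the median was -0.02, with 2 of the 12 lower at an unadjusted p under 0.05, beside 10.2% of all tested genes. Without Gent replicate 1 the median was 0.08, and 2 of the 12 were higher at that limit, about the same share as the 16.5% of all tested genes.

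Of 14 genes of uptake and transport, 0 were called, and 4 were lower at an unadjusted p under 0.05 and 1 higher, where 13.4% and 11.1% of all tested genes were. Without Gent replicate 1, 5 were lower and 3 higher, where 16.8% and 16.5% of all tested genes were. Tmem97, a sterol-regulated membrane protein that binds NPC1, was -0.63 ± 0.15 with an adjusted p of 0.0604 by edgeR's quasi-likelihood test, and its groups did not overlap (22.4 to 30 CPM against 36.4 to 47.8 CPM). Npc2, which carries cholesterol out of lysosomes, and Scarb1, the receptor for high density lipoprotein, were both -0.42 ± 0.13, and Scarb1 was -0.66 with the length correction. Gramd1c, of a family that moves cholesterol from the plasma membrane to the endoplasmic reticulum, was 0.43 ± 0.14, whereas Gramd1a of the same family, named after its value was seen, was -0.37 ± 0.14.

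Among 11 genes of efflux, storage and oxysterols, 0 were called and 4 were lower at an unadjusted p under 0.05, beside the 13.4% of all tested genes. Ch25h, which makes 25-hydroxycholesterol and is induced by interferon in macrophages, came nearest to a call. It stood at 4.3, 3.8, 5.89 and 3.99 CPM in Gent+Fos OE and at 10.37, 15.51 and 10.08 CPM in Gent, a log2 fold change of -1.41 ± 0.22 with an adjusted p of 0.0124 by edgeR's quasi-likelihood test. Cyp27a1, which makes 27-hydroxycholesterol, was -0.76 ± 0.22, Nr1h3, the oxysterol receptor LXR alpha, -0.64 ± 0.20, and Apoe, a lipoprotein component that macrophages and glia secrete, -0.47 ± 0.18. Apoe was -0.22 without Gent replicate 2, where 3 of the 11 and 10.2% of all tested genes were lower at that limit. Of 12 genes of fatty acid synthesis, which share SREBP control, 0 were called and 1, the desaturase Fads1, was lower at an unadjusted p under 0.05 (-0.37 ± 0.12). Fasn, fatty acid synthase, was 0.22 ± 0.16, Scd2, a desaturase, 0.33 ± 0.19, and Lpin1, a phosphatidate phosphatase, 0.32 ± 0.16. Scd2 was 0.12 and Lpin1 0.14 without Gent replicate 2, and with the length correction Lpin1 was 0.07 and Fasn -0.10. The median of the list was 0.08 with all libraries, 0.01 without Gent replicate 2, 0.16 without Gent replicate 1 (with 3 of the 12 and 16.5% of all tested genes higher at that limit) and -0.07 with the length correction, so it had no stable sign, whereas that of the 21 sterol synthesis genes was -0.25, -0.22, -0.25 and -0.32.

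Marker levels of macrophages, cycling cells and melanocytes moved with the groups. At an unadjusted p under 0.05 in edgeR's quasi-likelihood test, 13.4% of all tested genes were lower and 11.1% higher. Of 13 macrophage genes, 10 were lower at that limit, and their summed level ran from 3175 to 4947 CPM in Gent+Fos OE and from 5234 to 7351 CPM in Gent. Of 12 genes of cycling cells, 10 were lower at that limit (481 to 585 CPM against 676 to 806), and of 7 melanocyte genes 6 were (46.8 to 52.4 CPM against 90.5 to 129). None of these 3 lists had a gene at 0 in every library. With edgeR and all libraries, 2 melanocyte genes were called lower and 1 supporting cell gene higher, and no gene of the other cell lists was called. Supporting cell genes summed to 2445 to 2815 CPM in Gent+Fos OE and 1870 to 2369 CPM in Gent. This gap came from Otog (830 to 1354 CPM against 431 to 466), without which the sums overlapped (1383 to 1615 CPM against 1439 to 1902), and of the 8 supporting cell genes 2 were higher and 1 lower at that limit, with a median of 0.04. Hair cell genes summed to 710 to 899 CPM against 618 to 771, and without Myo6, the most abundant, to 448 to 597 CPM against 390 to 575. Of the 9 hair cell genes tested, 2 were higher and 0 lower at that limit, 5 had log2 fold changes below 0, and the median was -0.17, or 0.18 without Gent replicate 2. Mesenchyme (6892 to 10370 CPM against 8558 to 12420), endothelium (131 to 178 against 141 to 204), neurons (54.1 to 75.8 against 45.8 to 64.6) and Schwann cells and glia (474 to 627 against 466 to 623) overlapped in their sums between groups. The endothelial sum was carried by Emcn (88.2 to 129 CPM against 100.1 to 176). Of the 6 endothelial genes tested, 3 had log2 fold changes above 0 and 3 below, with a median of -0.01. At that limit 2 were higher, Cdh5 (11.08 to 18.54 CPM against 7.45 to 10.75) and Flt1 (2.02 to 2.66 CPM against 0.32 to 0.82), and 0 lower. Neither was called by edgeR with the default filter and all libraries. Both were called with limma-voom and quality weights, and 1 gene of the list was called with DESeq2 and with edgeR without a filter. At that limit 2 of 6 neuronal genes tested were higher, 1 of 12 Schwann cell and glial genes was higher and 3 were lower, and 2 of 8 mesenchymal genes were lower. These small counts stand beside the 11.1% of all tested genes higher and 13.4% lower. Within Gent+Fos OE, the macrophage sum was highest in replicate 4, as was the mean level of the 8 genes. Within Gent the sum was highest in replicate 2, where the mean of the 8 was lowest, but macrophage genes disagreed in that library. Ptprc, Mrc1 and Cx3cr1 had their lowest Gent counts there (1108, 1451 and 1069), and C1qa, C1qb and Lyz2 their highest (9367, 11111 and 148404). The sum is thus no clean measure of macrophages in that library. The part of these cells in the levels of the sterol genes was not tested.

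The 5 genes most like the mean pattern of the 8, by Pearson r of log2 CPM over the 7 libraries among 14830 other genes averaging 1 CPM or more, were Plek (0.98), Ywhah (0.98), Pik3ap1 (0.97), Asb2 (0.96) and Iigp1c (0.96). Plek is known from platelets and leukocytes, and Ywhah encodes a 14-3-3 protein. None of the 5 is a sterol gene, and with 7 points that share library and depth many genes reach a high r. Of the listed sterol genes outside the 8, Cyp51, the lanosterol demethylase, ranked highest at place 41 (r 0.92), and Msmo1, a methyl sterol oxidase, was at 355. Cyp51 itself had a log2 fold change of -0.17 ± 0.14 with an adjusted p of 0.476 by edgeR's quasi-likelihood test, and -0.29 without Gent replicate 2.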

How the data were processed

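Total RNA of 7 pools of utricles was sequenced. Per the labels the authors used Trim Galore 0.6.10, HISAT2 2.2.1, featureCounts 2.0.6 and mm10, and the deposited values are raw read counts per gene with no normalization. Per the file headers, multi-mapping reads, reads on several genes and strand were not used. The study's methods name another genome build, and 3 replicates per condition, so all 7 labelled libraries were used. No source ties libraries to litters, so p-values measure the spread between pools.

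The 8 genes, the gene lists and the tests were chosen with earlier results of these data known. Symbols were given by Ensembl ID from GENCODE vM39 (31674 of 32285 genes), and all 155 listed genes matched RefSeq. Genes passing filterByExpr with default settings (17155) were TMM-normalized and compared by edgeR 4.0.16's quasi-likelihood test in R 4.3.3, with Benjamini-Hochberg adjustment over all tested genes and no covariate. Calls used the study's limits, 0.01 for the adjusted p and 0.25 for the size of the log2 fold change. CPM are TMM-normalized, and log2 CPM used a prior count of 2. Single genes were also compared by exact permutation of the group labels (35 assignments). The genes named are the 8, synthesis genes and SREBP regulators, Fos, the 4 of lowest p in each other sterol list and the 5 most alike, and Gramd1a, Cdh5, Flt1 and top marker genes were named after their values were seen. Results of some genes are not reported here, and the lists leave them out. The stages of synthesis were set after the data were seen. The fits were tested on simulated data. The alternatives were DESeq2 1.42.0, limma-voom (limma 3.58.1) without and with quality weights, RLE and upper quartile scaling, a minimum of 10 counts in each library, no filter, a loess correction for gene length, a replicate block without and with it, and each library left out. Python 3.11.15 with pandas 2.3.3, numpy 2.4.6 and matplotlib 3.10.9 made tables and figures.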

Additional observations from a re-analysis of the deposited data

Results flagged for a closer look

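In the Gent+Fos OE group, Dixon's test at its 95% limit for 4 samples was applied to 46 genes, Fos among them, and 1 value lay far from the others. Fos stood at 166.98 CPM in replicate 3, against 148.83 to 151.14 CPM in the other 3 libraries. Chance flags about 1 in 20 groups. Groups of 3 were not tested, so Gent replicate 2 was not.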

How the results depend on the processing

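None of the 8 genes was called under any of the 17 alternatives. Of the 136 values of the 8 genes under them, 131 kept their direction, and 5 reversed. Hmgcs1 was 0.065 and Insig1 0.014 without Gent replicate 1, and Idi1 was -0.29 without Gent replicate 2, -0.06 without Gent+Fos OE replicate 4 and -0.22 with limma-voom and quality weights. The lowest adjusted p of the 8 was 0.0135, for Dhcr7 with limma-voom and quality weights, and its adjusted p ranged up to 0.257 over the alternatives. The median of the 8 was -0.30 with the length correction and ran from -0.28 to -0.081 with 1 library left out. Fasn (-0.10 and -0.030) reversed with the length correction without and with the block. These alternatives for genes outside the 8, marker sums without the top gene, the synthesis list without Erg28 and levels per kb of unshared exons were added after the data were seen. Ch25h was called with DESeq2 (-1.41), quality weights (-1.12), no filter (-1.42) and length correction (-1.23), and Tmem97 with DESeq2 (-0.63) and quality weights (-0.52).

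Over all genes, 23 higher and 48 lower calls became 273 and 327 with DESeq2, 531 and 430 with quality weights, 63 and 141 without a filter and 35 and 95 with the length correction. With 1 library left out they ran from 2 to 45 higher and from 3 to 93 lower, and were 2 and 3 without Gent+Fos OE replicate 3 and 3 and 12 without Gent replicate 3. The replicate block left 0 higher and 0 lower, with Fos at 2.03 and no longer called, and the replicate block with length correction left 17 higher and 31 lower, with a median of the 8 of -0.35. No source says what same-numbered libraries share beyond a number. Their deviations correlated at 0.06, -0.04 and 0.03, where those of differently numbered libraries correlated at -0.06 to 0.04. Such small values cannot tell whether same-numbered libraries shared a litter or a batch. The cause of the shifts in calls was not tested. With 3 and 4 libraries, the 95% intervals of 5 of the 8 genes spanned 0, and counting alone gave a coefficient of variation of 1.80 to 4.42% at their lowest counts.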
